A study of Homo sapiens with 4 samples.

Results

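The genes described here encode the machinery that moves proteins into the endoplasmic reticulum (ER) and the coats and receptors that carry them between the ER and the Golgi apparatus. They were chosen by symbol alone, as all SEC11, SEC13, SEC16, SEC22, SEC23, SEC24, SEC31, SEC61, SEC62 and SEC63 genes, the signal recognition particle (SRP) and its receptor, SSR1 to SSR4, SPCS1 to SPCS3, the coatomer genes, the TMED genes, SAR1A, SAR1B and ARCN1. This gave 59 of the 16057 genes in the deposited table: 23 of translocation, 17 of the COPII coat and 19 of the COPI coat, of which 9 encode coatomer and 10 TMED proteins. Most TMED proteins belong to the p24 family, which binds both coats, and all 10 were placed with COPI here. RNA sequencing gave their transcript levels in MM.1S, an established human multiple myeloma line, so all values come from 1 line. The cells were kept for 26 h with 350 nM JG342, a compound that inhibits HSP70 chaperones at an allosteric site, or with the solvent DMSO. Each group had 2 libraries, described as biological replicates and numbered 1 and 2, and no genotype or other agent differed between the groups.

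Plasma cells and the myelomas derived from them make large amounts of immunoglobulin, all of which enters the ER as it is translated. SRP binds the signal sequence of a nascent chain and brings the ribosome to its receptor on the ER membrane, the chain passes through the SEC61 channel, and signal peptidase removes the signal sequence. Folded cargo leaves in vesicles coated with COPII, which the GTPase SAR1 starts and SEC23, SEC24, SEC13 and SEC31 build, and vesicles coated with COPI, the coatomer complex, return escaped ER proteins and receptors from the Golgi.

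Values are in TPM, a count of transcripts relative to a fixed total, which is corrected for transcript length, and differences are JG342 minus DMSO on the log2(TPM + 1) scale, with a limma test over the 12042 genes whose mean was at least 1 TPM. A gene is said to have risen or fallen where its Benjamini-Hochberg adjusted p was under 0.05. All 59 genes entered that test. The libraries summed to between 994463 and 994718 TPM, and TPM records no read depth. All 9 plasma cell markers examined were present, with summed levels of 5209 and 4454 TPM with DMSO and 5209 and 4820 TPM with JG342. Of these markers 2 rose and 1 fell (33.3%, against 18.4% of all genes tested). After scaling to equal medians only 1 of them passed, as higher, where 18% of all genes passed. The 9 markers of other cell types that could be analysed summed to 53.7 and 64.9 TPM with DMSO and 65.8 and 59.7 TPM with JG342, mostly from LYZ. The part of these markers in the results was not tested. Sequence shared with other genes bears on several members. A pseudogene nearly identical to part of the transcript was found for SEC11A, SPCS2 and SRP14, TMED5 and TMED7 share sequence with the overlapping genes CCDC18 and TMED7-TICAM2, and exons of 24 members overlap another gene by at least 100 bases. For those members the split of reads is uncertain.

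Of the 10 members that differed between the treatments, 5 were translocation genes, 2 COPII genes and 3 coatomer genes. The 3 were among 9 coatomer genes, where 18.4% of all genes tested passed. Sequences before the start site are shown for these 3, which rose (COPZ2, COPG1 and COPA). They are also shown for the 2 coatomer genes whose promoters hold a stress motif (COPB1 and COPB2). Each line gives the 250 bases before the start of the gene, 5′ to 3′ on the gene's own strand, from RefSeq on GRCh38.p14. Capitals mark TGACGTGG, read here from the opposite strand, the core of the unfolded protein response element that the ER stress factors XBP1 and ATF6 recognise.
COPZ2: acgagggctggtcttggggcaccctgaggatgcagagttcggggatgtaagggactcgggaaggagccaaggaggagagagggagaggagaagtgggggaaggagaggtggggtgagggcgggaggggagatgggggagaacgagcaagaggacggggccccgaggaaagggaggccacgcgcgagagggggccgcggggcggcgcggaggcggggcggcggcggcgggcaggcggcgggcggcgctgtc
COPG1: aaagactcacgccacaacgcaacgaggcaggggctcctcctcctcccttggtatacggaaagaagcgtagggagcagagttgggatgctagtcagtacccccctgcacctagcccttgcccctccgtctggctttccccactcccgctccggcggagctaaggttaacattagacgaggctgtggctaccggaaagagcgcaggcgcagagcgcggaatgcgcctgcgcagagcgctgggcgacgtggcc
COPA: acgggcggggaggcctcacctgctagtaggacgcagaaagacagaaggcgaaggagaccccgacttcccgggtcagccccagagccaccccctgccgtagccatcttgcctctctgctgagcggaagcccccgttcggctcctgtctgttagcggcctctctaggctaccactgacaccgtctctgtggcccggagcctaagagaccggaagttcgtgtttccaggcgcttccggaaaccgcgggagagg
COPB1: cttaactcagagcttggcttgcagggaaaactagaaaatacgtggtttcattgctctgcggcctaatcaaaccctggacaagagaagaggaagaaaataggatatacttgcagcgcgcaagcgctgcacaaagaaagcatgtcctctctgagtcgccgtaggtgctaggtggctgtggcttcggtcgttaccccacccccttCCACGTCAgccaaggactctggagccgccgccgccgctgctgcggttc
COPB2: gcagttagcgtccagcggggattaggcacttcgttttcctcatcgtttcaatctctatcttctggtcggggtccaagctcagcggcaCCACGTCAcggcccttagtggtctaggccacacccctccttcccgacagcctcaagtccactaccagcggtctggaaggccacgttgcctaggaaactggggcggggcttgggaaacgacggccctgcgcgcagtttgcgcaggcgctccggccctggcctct
These stretches lie at chr17:48037798-48038047 on the minus strand for COPZ2, chr3:129249356-129249605 on the plus strand for COPG1, chr1:160343251-160343500 on the minus strand for COPA, chr11:14499812-14500061 on the minus strand for COPB1 and chr3:139389681-139389930 on the minus strand for COPB2. Bases G and C made up 72.8% of the COPZ2 stretch, 63.2% of that of COPG1, 64.4% of that of COPA, 55.2% of that of COPB1 and 62.4% of that of COPB2.

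RefSeq promoter sequences were matched by symbol for 54 of the 59 members, all but SEC24D, SPCS1, SRPRA, TMED4 and TMED9. Across these, TGACGTGG on either strand occurred in 6 (11.1%), against 108 of 15843 promoters of protein-coding genes of the same length (0.682%). The 6 genes were COPB1, with the motif beginning 48 bases before the start, COPB2 (163 bases), SEC62 (17 bases), SRP19 (112 bases), SEC24A (179 bases) and SEC16B (31 bases). None of these 6 was among the members that rose or fell, although COPB1 did pass once replicate number was a blocking term. SEC24D and SRPRA, which rose, had no promoter sequence to search. The element to which ATF4 binds with C/EBP factors, searched as TGATGNAA on either strand, occurred in 1 member promoter, that of SRPRB, against 2.21% of all. No match was found in the member promoters for the ER stress element ERSE (0.12% of all promoters), its variant ERSE-II (0.0694%) or the heat shock element HSE (0.335%), both strands searched. The matches overlapped no other motif of this search. A match is a run of letters and was not examined for binding.

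Translocation genes were the most abundant of the 3 groups. Their DMSO means had a median of 224 TPM, against 93.8 TPM for the COPI genes, 38.2 TPM for the COPII genes and 20.7 TPM for all genes tested. SEC11C, a catalytic subunit of signal peptidase, was the highest member at 1336 and 1204 TPM with DMSO and 1482 and 1474 TPM with JG342, rank 103 by DMSO mean in the whole table. It was followed by SSR2 with a DMSO mean of 953 TPM, SPCS1 with 712 TPM, SRP9 with 630.4 TPM and SSR4 with 605 TPM. The DMSO libraries of SEC11C, SSR2, SPCS1 and SRP9 did not overlap with each other, whereas those of SSR4 stood at 752 and 458 TPM and span the levels of SPCS1 and SRP9. Exons of SPCS1 overlap NEK4 on the opposite strand over 60.5% of their length and those of SSR4 overlap IDH3G over 16.2%, so the place of both in this order is uncertain. Within COPII, SEC13 was highest at 175 and 177 TPM with DMSO and 174 and 182 TPM with JG342, and within COPI it was COPE at 445 and 413 TPM with DMSO and 502 and 488 TPM with JG342. The lowest members with DMSO were COPZ2 at a mean of 0.825 TPM, TMED6 at 2.35 TPM and SEC16B at 3.44 TPM. Genes on the same strand overlap 77.6% of the exons of SEC16B, 49.7% of those of TMED6 and 21.8% of those of COPE. The levels of these genes are uncertain too. Summed over their members, the translocation genes reached 8391 and 7912 TPM with DMSO and 9356 and 8701 TPM with JG342. The COPII genes summed to 810.1 and 864 TPM and to 929.6 and 916 TPM in the same order. For the COPI genes these sums were 1924 and 1967 TPM with DMSO and 2344 and 2251 TPM with JG342, so the JG342 libraries lay above the DMSO libraries in each group.

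**Figure D1:**
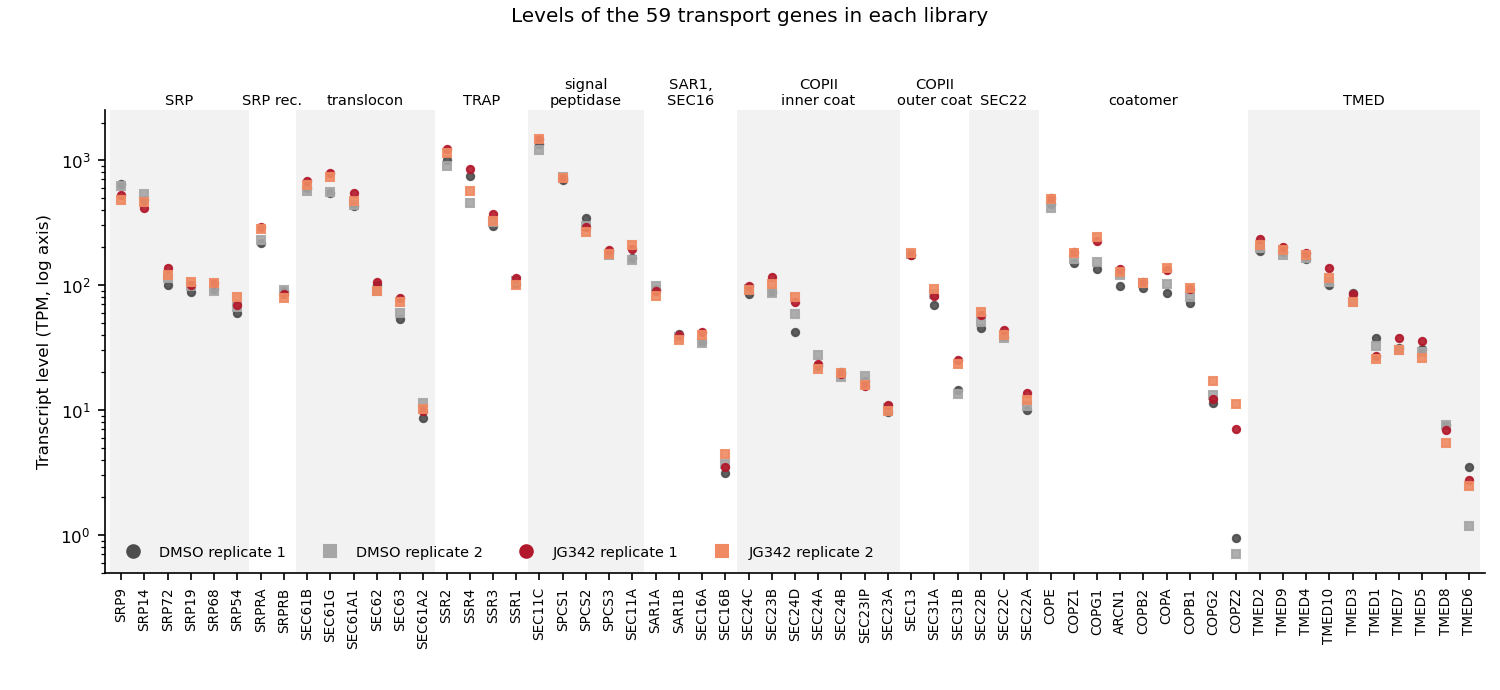
Level of each of the 59 genes (TPM, log axis) in the 4 libraries, ordered within each complex by DMSO mean. SEC11C reached the highest level, and COPZ2 is the gene whose JG342 libraries stand furthest from its DMSO libraries.

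Of the 59 members, 9 rose and 1 fell with JG342. The 9 were COPZ2, SEC31B, COPG1, SEC24D, COPA, SEC61G, SEC63, SRPRA and SEC11A, and the member that fell was SRP9. Called members made up 16.95% of the 59, against 18.4% of all genes tested (15.3% against 10.8% for rises and 1.69% against 7.62% for falls), so the share is close to the background. Leaving out each library in turn left 3 (without DMSO replicate 1), 5 (without DMSO replicate 2), 7 (without JG342 replicate 1) and 6 (without JG342 replicate 2) of the 10, and COPZ2, COPG1 and SEC31B were among them each time. The median difference of the 59 was 0.18, beside 0.03 for all genes. Of the 59, 48 were above 0 and 11 below (39 above after scaling to equal medians and 44 after quantile normalization). Among the 12042 genes tested 6446 were above 0 (5467 after scaling to equal medians and 5585 after quantile normalization). The median of the 59 was 0.115 without JG342 replicate 1 and 0.113 after scaling to equal medians. In these bulk samples a change in the number of cells of a kind and in RNA per cell cannot be told apart. In 31 members both JG342 libraries lay above both DMSO libraries (52.5%, against 34% of all genes), and in 8 both lay below (13.6%, against 28.2%). The replicate number as a block raised the called members to 24 (21 higher and 3 lower), as it raised all genes called to 34.9% (19.2% higher and 15.7% lower). With the block and scaling to equal medians together 17 members passed, 12 higher and 5 lower (SRP9, SRP14, SPCS2, SAR1A and TMED1). Of all genes 35.1% passed in that fit (14.6% higher and 20.5% lower). Scaling to equal medians without the block changed the balance: of all genes 967 were higher (8.03%) and 1202 lower (9.98%), 18% in all, in place of 1304 and 917, and of the members 6 were higher and 2 lower. The 2 were SRP9 and TMED1, and SEC11A, SEC24D and SRPRA no longer passed (limma adjusted p 0.119, 0.052 and 0.0554).

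**Figure D2:**
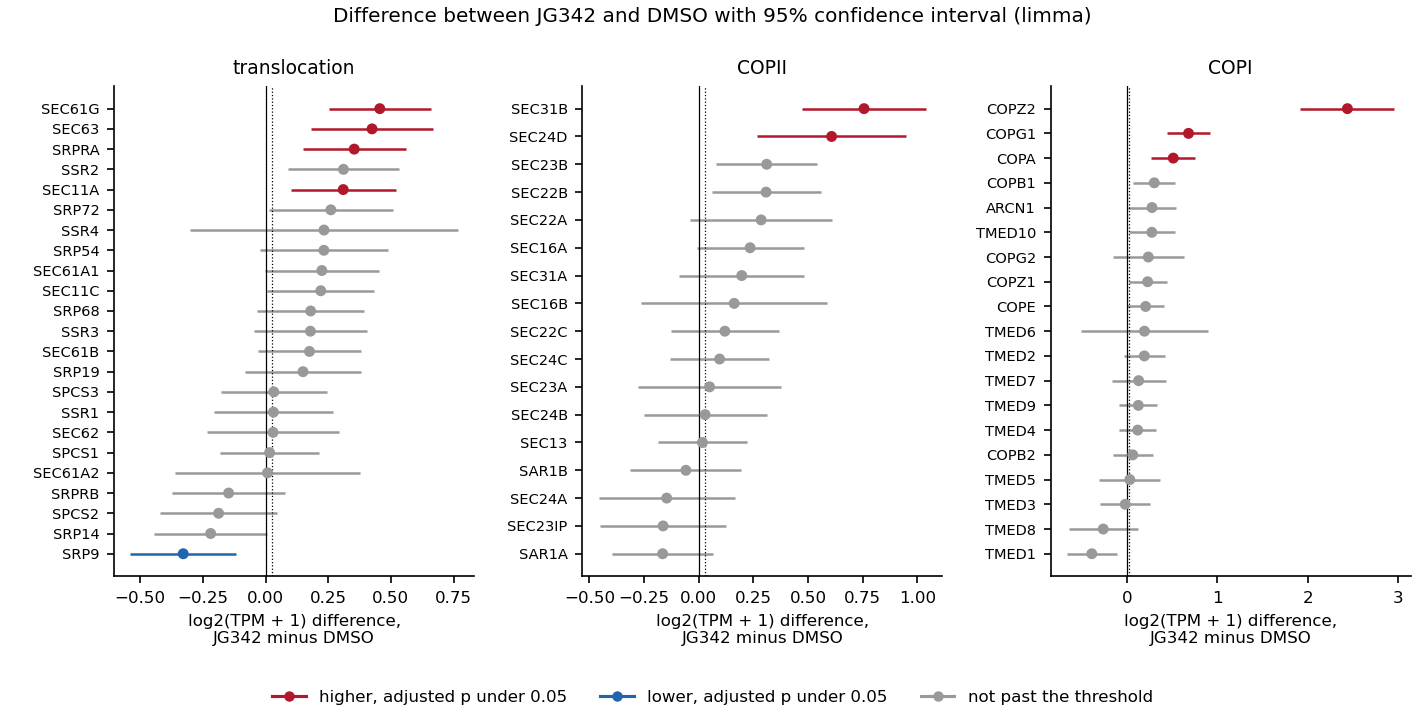
Difference in log2(TPM + 1) between JG342 and DMSO (x axis) for every member, with its 95% confidence interval from limma. Solid lines mark 0 and dotted lines the median of all genes tested (0.03), and the COPI axis is wider because COPZ2 stood at 2.44.

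**Figure D3:**
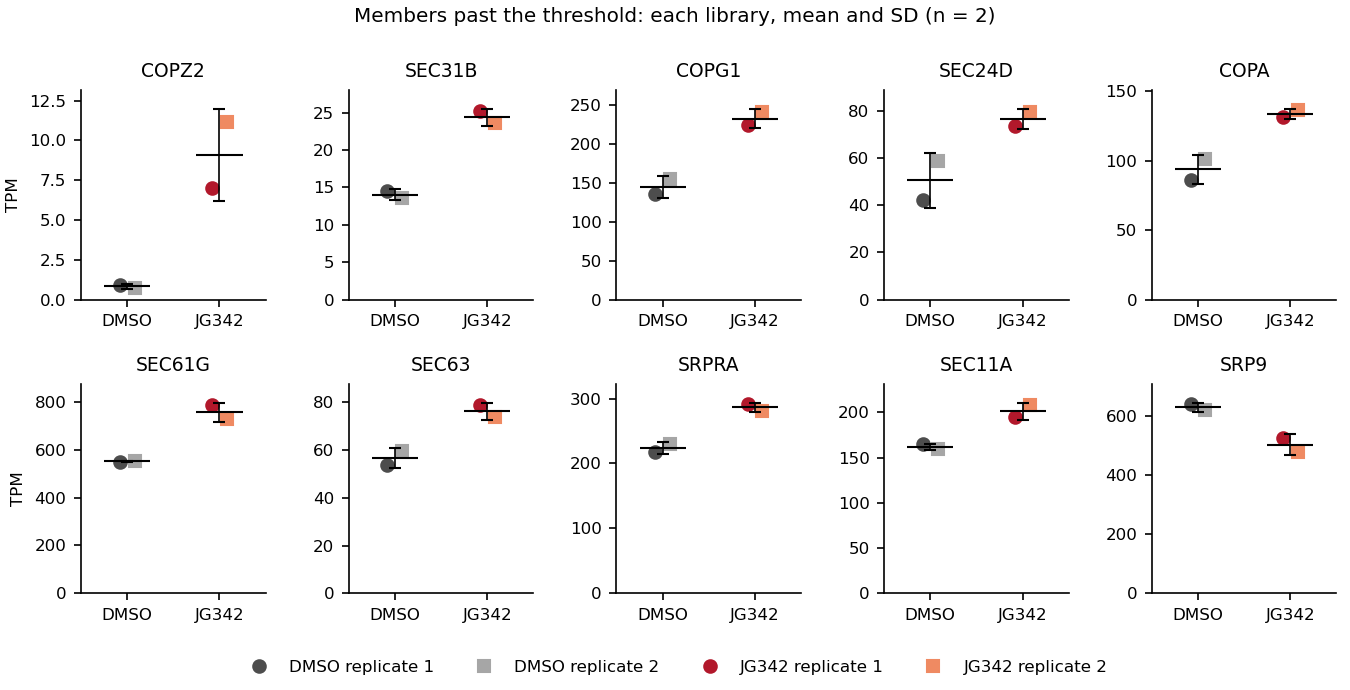
Level in TPM of the 10 members past the threshold in each library, with the mean (bar) and SD (n = 2) of each treatment. The libraries of the 2 treatments do not overlap in any panel, and SRP9 is the only panel with JG342 below DMSO.

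Among the 6 SRP proteins, the small pair that binds the Alu part of the particle's RNA had differences below 0 and the other 4 above 0. SRP9 (NM_001130440), which pairs with SRP14 to slow elongation while the ribosome docks, was at 641 and 619 TPM with DMSO and 528 and 477 TPM with JG342. Both JG342 libraries were below both DMSO libraries, and SRP9 fell by 0.33 ± 0.09 (SE, log2 units), with a limma adjusted p of 0.0405. Its partner SRP14 was at 482 and 537 TPM with DMSO and 415 and 461 TPM with JG342. The SRP14 libraries did not overlap either, with a difference of −0.22 ± 0.10 that missed the threshold (limma adjusted p 0.162) and passed with the replicate block (0.0178). The other subunits, with the RNA-bound scaffold SRP68 and SRP72, the assembly protein SRP19 and SRP54, the GTPase that holds the signal sequence, had positive differences between 0.15 (SRP19) and 0.26 (SRP72). None of these 4 passed, and SRP72 did with the block (limma adjusted p 0.132 and 0.0157), but not with the block and median scaling (0.108). In all 4 both JG342 libraries were above both DMSO libraries, as in 34% of all genes tested. The difference between the SRP9 and SRP14 pair and the other subunits was not tested.

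The SRP receptor's subunits stood on opposite sides of 0. SRPRA (NM_001177842), the GTPase that meets SRP54, was at 217 and 230.4 TPM with DMSO and 292 and 281 TPM with JG342, and it rose by 0.35 ± 0.09 (limma adjusted p 0.0274). SRPRB, which anchors it in the membrane, was at 89.4 and 92.1 TPM with DMSO and 85.4 and 78.5 TPM with JG342. Its libraries were lower with JG342 without overlap, but −0.15 ± 0.10 missed the threshold (limma adjusted p 0.336, 95% interval −0.37 to 0.08).

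The SEC61 channel has an α subunit that forms the pore and the small β and γ subunits. SEC61G (NM_001012456), the γ subunit, was at 548 and 553 TPM with DMSO and 785 and 728 TPM with JG342. The DMSO libraries nearly coincided, both JG342 libraries were higher, and SEC61G rose by 0.46 ± 0.09, a 1.37-fold ratio of mean TPM (limma adjusted p 0.0102). The β subunit SEC61B was at 600.5 and 568 TPM with DMSO and 681 and 638 TPM with JG342, a difference of 0.18 ± 0.09 that did not pass (limma adjusted p 0.212). SEC61A1, the main α subunit, was at 432 and 434 TPM with DMSO and 546 and 469 TPM with JG342. Its difference of 0.22 ± 0.10 passed with the block and not without it (limma adjusted p 0.0147 and 0.154), and it failed with the block and median scaling (0.172). The second α gene, SEC61A2, was far lower, between 8.63 and 11.4 TPM over the 4 libraries, with overlapping treatments.

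SEC63 (NM_007214) recruits the lumenal HSP70 protein BiP, the product of HSPA5, to the channel through its J domain. It was at 53.6 and 59.7 TPM with DMSO and 78.8 and 73.8 TPM with JG342 and rose by 0.42 ± 0.11 (limma adjusted p 0.0259). Its partner SEC62 was at 100.2 and 89.9 TPM with DMSO and 106 and 88.95 TPM with JG342, and the treatments overlapped (difference 0.03 ± 0.12, 95% interval −0.23 to 0.29). An antisense gene overlaps 4.7% of the exons of SEC63, and whether the counting used strand is not given in the sources used here.

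The translocon-associated protein (TRAP) complex, encoded by SSR1 to SSR4, helps some signal sequences open the channel. SSR2 was at 1007 and 899 TPM with DMSO and 1218 and 1144 TPM with JG342. Its libraries did not overlap and its difference of 0.31 ± 0.10 just missed the threshold (limma adjusted p 0.0556; 0.000208 with the block). With the block and median scaling it missed again (0.0715). SSR4 followed the replicate number more than the treatment, at 752 and 458 TPM with DMSO and 846 and 562 TPM with JG342: both libraries numbered 1 were above both numbered 2. Within each number JG342 was the higher, and SSR4 passed with the block (limma adjusted p 0.527 without and 0.00911 with it), though not with the block and median scaling (0.185). SSR3 (difference 0.18 ± 0.10) and SSR1 (0.03 ± 0.10) did not pass (limma adjusted p 0.243 and 0.863).

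Signal peptidase has the alternative catalytic subunits SEC11A and SEC11C beside SPCS1, SPCS2 and SPCS3. SEC11A (NM_001271918) was at 165 and 159.8 TPM with DMSO and 195 and 208 TPM with JG342 and rose by 0.31 ± 0.09 (limma adjusted p 0.0476). A processed pseudogene, SEC11B, matches 38.3% of its transcript at 95.3% identity. SEC11C, given above, had a difference of 0.22 ± 0.09 that passed only with the block (limma adjusted p 0.137 and 0.0106), and was lost when median scaling was added (0.281). The accessory subunits did not pass without the block. The difference was 0.02 ± 0.09 for SPCS1, 0.03 ± 0.09 for SPCS3 and −0.19 ± 0.10 for SPCS2. SPCS2 was at 342 and 298 TPM with DMSO and 294 and 268 TPM with JG342, lower with JG342 without overlap (limma adjusted p 0.239). It missed with the block (0.0589) and passed as lower with the block and median scaling (0.0361). In all, 5 of the 23 translocation genes passed, 4 higher and 1 lower (21.7%, near the 18.4% of all genes), with a median difference of 0.18, or 0.115 without JG342 replicate 1. The block raised this to 11 genes (9 higher and 2 lower), where 34.9% of all genes passed. The block with median scaling gave 7 (4 higher and 3 lower), where 35.1% of all genes passed. No translocation gene passed when DMSO replicate 1 or DMSO replicate 2 was left out. Without DMSO replicate 1 and without DMSO replicate 2 the limma adjusted p was 0.0712 and 0.0788 for SEC61G, 0.157 and 0.0718 for SEC63, 0.163 and 0.103 for SRPRA, 0.198 and 0.159 for SRP9, and 0.15 and 0.229 for SEC11A. Leaving out a JG342 library kept 2 of them, SEC61G and SRP9 without JG342 replicate 1 and SEC61G and SEC63 without JG342 replicate 2.

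COPII genes rose in 2 of 17 cases, SEC31B and SEC24D, each a member of a paralog family whose other genes did not pass. This was 11.8% of COPII genes, beside 10.8% of all genes that rose and 18.4% that passed in either direction. With the block 4 passed, all higher (23.5%, against 34.9% of all genes). With the block and median scaling 5 passed, 4 higher and SAR1A lower (29.4%, against 35.1% of all genes). SEC31B (NM_015490), the less abundant form of the outer coat protein SEC31, was at 14.5 and 13.5 TPM with DMSO and 25.2 and 23.6 TPM with JG342. The JG342 libraries were well above both DMSO libraries, and SEC31B rose by 0.76 ± 0.13, 1.74-fold in mean TPM (limma adjusted p 0.00525), and it passed under every alternative run. A gene model on the same strand shares 12.4% of its exons. SEC31A, the main form, was at 68.99 and 85.2 TPM with DMSO and 82.6 and 93.8 TPM with JG342, with overlapping treatments and a difference of 0.20 ± 0.13 (95% interval −0.09 to 0.48). SEC13, which forms the outer cage with SEC31 and is also a nuclear pore protein, had overlapping treatments and a difference of 0.02 ± 0.09 (95% interval −0.19 to 0.22).

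SEC24 proteins select the cargo of the COPII coat. SEC24D (NM_001318066) was at 42.4 and 58.8 TPM with DMSO and 73.6 and 79.7 TPM with JG342. Both JG342 libraries were above both DMSO libraries, which themselves differed, and SEC24D rose by 0.61 ± 0.15 (limma adjusted p 0.0243). It did not pass without DMSO replicate 1 (limma adjusted p 0.133) or JG342 replicate 2 (0.0612). SEC24C, the highest SEC24 gene, was at 85.7 and 92.6 TPM with DMSO and 98.7 and 91.9 TPM with JG342. The treatments overlapped for SEC24C (difference 0.10 ± 0.10), SEC24B (0.03 ± 0.12) and SEC24A (−0.15 ± 0.14), of which SEC24B was between 18.3 and 20.1 TPM and SEC24A between 21.4 and 27.7 TPM. 

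SEC23 activates the GTPase of SAR1 and binds SEC24. SEC23B was at 88.2 and 86.6 TPM with DMSO and 115 and 102 TPM with JG342, without overlap, and its difference of 0.31 ± 0.10 passed only with the block (limma adjusted p 0.0653; 0.00438 with the block). SEC23A was lower, between 9.70 and 11.05 TPM, with a difference of 0.05 ± 0.14. SEC23IP, which binds SEC23, was at 17.1 and 18.6 TPM with DMSO and 15.6 and 16.01 TPM with JG342, with a difference of −0.16 ± 0.13 (limma adjusted p 0.404). The GTPase genes were not higher. SAR1A was at 92.9 and 99.1 TPM with DMSO and 89.8 and 81.4 TPM with JG342, lower with JG342 without overlap. Its difference of −0.16 ± 0.10 did not pass without the block (limma adjusted p 0.295) or with it (0.172). It passed as lower with the block and median scaling (0.0483), and SAR1B differed by −0.06 ± 0.11. SEC16A, the scaffold of ER exit sites, had a difference of 0.24 ± 0.11 and SEC16B one of 0.16 ± 0.19 (limma adjusted p 0.165 and 0.584). SEC22B, the SNARE that fuses vesicles between ER and Golgi, was at 45.2 and 50.6 TPM with DMSO and 57.5 and 61.4 TPM with JG342, and passed only with the block (difference 0.31 ± 0.11, limma adjusted p 0.0844 and 0.0125). Its relatives SEC22A and SEC22C differed by 0.29 and 0.12 and did not pass. For each of the 3 SEC22 genes both JG342 libraries were above both DMSO libraries, as in 34% of all genes tested. The median difference of the 17 COPII genes was 0.12, which became 0.058 without JG342 replicate 1 and 0.054 after median scaling.

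Coatomer is a complex of 7 kinds of subunit, encoded here by 9 genes, since the γ and ζ subunits have a pair of genes each. The differences of all 9 were above 0, as were those of 6446 of the 12042 genes tested. They ran from 0.07 (COPB2) to 2.44 (COPZ2), with a median of 0.28. COPB2 stood at −0.00073 when DMSO replicate 1 was left out. In 7 of the 9 the JG342 libraries lay above the DMSO libraries without overlap, as in 34% of all genes. Summed coatomer TPM was 1093 and 1147 with DMSO and 1393 and 1401 with JG342. Of the 9, 3 passed the threshold, where 18.4% of all genes did. With the replicate block 7 passed (34.9% of all genes), and 4 with the block and median scaling (35.1% of all genes).

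COPZ2 (NM_016429), a ζ subunit of low abundance, showed the largest difference of all members. It was at 0.94 and 0.71 TPM with DMSO and 7.02 and 11.1 TPM with JG342, so both JG342 libraries were several times above both DMSO libraries. COPZ2 rose by 2.44 ± 0.23 on the log2(TPM + 1) scale (limma adjusted p 0.000357), and the ratio of mean TPM was 11.01. Judged from the spacing of low values in the table, the DMSO values stand for about 4 and 3 reads and the JG342 values for about 26 and 47, so the size of the ratio is imprecise. The call held under every alternative in which the gene was tested, but a minimum mean of 5 TPM removed COPZ2 from the test. The other ζ gene, COPZ1, was at 149.6 and 160.3 TPM with DMSO and 184 and 180.1 TPM with JG342 and had a difference of 0.23 ± 0.09 (limma adjusted p 0.117; 0.0265 with the block and 0.126 with the block and median scaling).

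COPG1 (NM_016128), the main γ subunit, was at 135 and 154 TPM with DMSO and 223 and 241 TPM with JG342. The lowest JG342 library exceeded the highest DMSO library by a wide margin beside the spread within each treatment, and COPG1 rose by 0.68 ± 0.10, 1.61-fold in mean TPM (limma adjusted p 0.00354), under every alternative run. COPG2 was at 11.3 and 13.2 TPM with DMSO and 12.4 and 17.1 TPM with JG342, with overlapping treatments (difference 0.24 ± 0.17). COPA (NM_001098398), the α subunit, which reads retrieval signals on cargo together with the β′ subunit COPB2, was at 86.4 and 101 TPM with DMSO and 131 and 136 TPM with JG342, and it rose by 0.51 ± 0.11 (limma adjusted p 0.0128). Without DMSO replicate 1 COPA did not pass (limma adjusted p 0.0936), and 2.7% of its exons overlap NCSTN on the opposite strand.

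The remaining coatomer genes differed by less. COPB1, the β subunit, was at 72.3 and 80.1 TPM with DMSO and 92.9 and 95.4 TPM with JG342 and ARCN1, the δ subunit, at 97.7 and 119.9 TPM with DMSO and 135 and 128 TPM with JG342. Their differences of 0.30 ± 0.10 and 0.28 ± 0.12 missed the threshold without the block (limma adjusted p 0.0691 and 0.131) and passed with it (0.0069 and 0.00913). COPE, the ε subunit whose levels are given above, behaved likewise (difference 0.21 ± 0.09, limma adjusted p 0.142; 0.0258 with the block). COPB2 was at 95.3 and 105 TPM with DMSO and 105 and 104 TPM with JG342, overlapping, with a 95% interval of −0.16 to 0.29 for its difference. With the block and median scaling together, COPB1 passed and ARCN1 and COPE did not (limma adjusted p 0.039, 0.0856 and 0.228).

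Most of the 10 TMED genes encode cargo receptors of the p24 family, for membrane and GPI-anchored proteins. None of the 10 passed in the limma test, while 2 had an unadjusted p under 0.05, as did 4044 of the 12042 genes tested. The TMED genes had 7 differences above 0 and 3 below, where 6446 of the 12042 genes tested were above 0. Their median difference was 0.12. It rested on single libraries, since it was 0.029 without JG342 replicate 1 and 0.040 without DMSO replicate 2, each with 5 above and 5 below, and 0.208 without JG342 replicate 2. After median scaling it was 0.058. TMED1 was nearest to the threshold, at 37.5 and 32.4 TPM with DMSO and 27.1 and 25.8 TPM with JG342, lower with JG342 without overlap (difference −0.39 ± 0.12, limma adjusted p 0.0564). It passed with the block (0.00486) and after median scaling (0.0405). TMED10, a core subunit of p24 complexes, was at 101 and 106 TPM with DMSO and 137 and 114 TPM with JG342. TMED2, the other core subunit, was at 188 and 199 TPM with DMSO and 235 and 209 TPM with JG342. Both were higher without overlap, TMED10 by 0.28 ± 0.11 and TMED2 by 0.19 ± 0.10, and TMED10 passed only with the block (limma adjusted p 0.12 and 0.0102), a call lost when median scaling was added (0.0789). TMED9 and TMED4 differed by 0.13 and 0.12, also without overlap. TMED3, TMED5, TMED6 and TMED7 overlapped between treatments, with differences from −0.02 to 0.20. TMED6, at 3.52 and 1.19 TPM with DMSO and 2.76 and 2.45 TPM with JG342, had the widest interval (−0.51 to 0.90). TMED8 was low, between 5.41 and 7.58 TPM, with a difference of −0.26 ± 0.17. For all 19 COPI genes the median difference was 0.20, or 0.129 after median scaling. Of these 19, 9 passed with the block, 8 higher and 1 lower (47.4%, against 34.9% of all genes). With the block and median scaling 5 passed, 4 higher and 1 lower (26.3%, against 35.1% of all genes).

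Several subunits are encoded by paralogs, and the share of each in the summed TPM of its family was compared. With 2 libraries against 2, an exact two-sided permutation test cannot give a p below 0.333, so shares are described without a test. SEC24D took 24.8% and 29.8% with DMSO and 34.2% and 37.5% with JG342. This was a gain of 8.52 percentage points in the mean, with no overlap, while SEC24C went from a mean of 48.6% to 44.5% and SEC24A from 13.6% to 10.5%. The share of SEC31B within SEC31 was 17.4% and 13.7% with DMSO and 23.4% and 20.1% with JG342. Of ζ transcripts, COPZ2 made up 0.625% and 0.441% with DMSO and 3.68% and 5.83% with JG342, and COPZ1 the rest. Within the γ pair, COPG2 was 7.74% and 7.85% with DMSO and 5.24% and 6.63% with JG342. Of SEC23 transcripts, SEC23A accounted for 9.91% and 10.8% with DMSO and 8.74% and 8.84% with JG342. The shares of SEC11A, SEC16A and SEC61A1 overlapped between treatments: SEC11C had a mean of 88.66% with DMSO and 88.01% with JG342, SEC16A of 91.0% and 91.2%, and SEC61A1 of 97.7% and 98.1%. Leaving out single libraries kept the sign of the share differences for SEC24D (6.04 to 11.002 points), SEC31B (4.34 to 8.02), COPZ2 (3.15 to 5.29) and COPG1 (1.17 to 2.55).

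**Figure D4:**
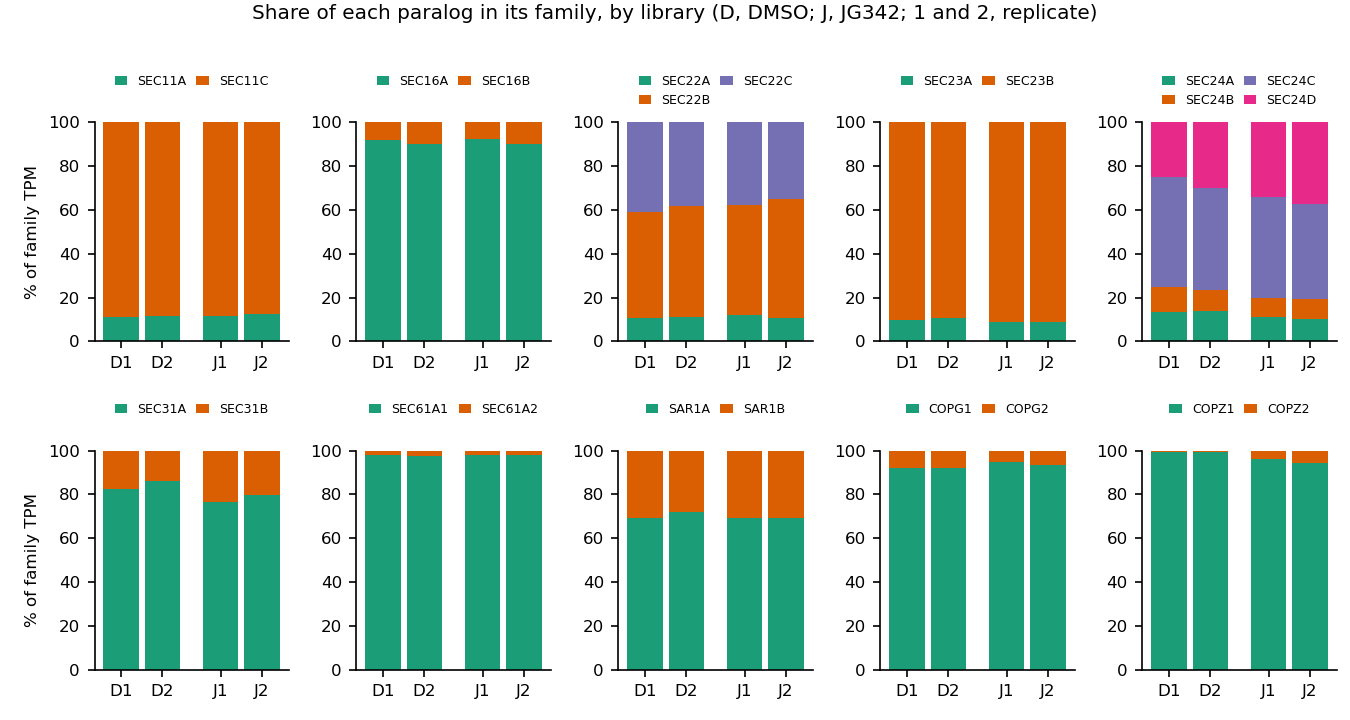
Share of each gene in the summed TPM of its paralog family (percent), by library, with D1 and D2 the DMSO and J1 and J2 the JG342 libraries. SEC24D takes a larger share in both JG342 libraries (34.2% and 37.5%) than in both DMSO libraries (24.8% and 29.8%).

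Other genes of the pathway were taken from lists and are given for comparison. Of 12 genes listed as partners of the translocon, including the lumenal HSP70 machinery, 4 rose and 1 fell. HYOU1, an exchange factor for BiP, was at 194 and 199 TPM with DMSO and 377 and 326 TPM with JG342 (difference 0.83 ± 0.10, limma adjusted p 0.00135). TRAM2, a relative of the channel protein TRAM1, was at 150.3 and 137 TPM with DMSO and 101 and 76.9 TPM with JG342 (−0.70 ± 0.13, limma adjusted p 0.00943). HSPA5, which SEC63 recruits, was among those that rose (0.47 ± 0.10, limma adjusted p 0.0158). SND1, also on that list, did not pass (limma adjusted p 0.263), and its place at the translocon is uncertain. Of the 11 oligosaccharyltransferase genes tested, which add N-glycans at the channel, 2 rose, TMEM258 (0.34 ± 0.09) and OSTC (0.33 ± 0.09), and none fell (limma adjusted p 0.0342 and 0.0364). Neither passed after scaling to equal medians (0.102 and 0.0789). In the ER membrane protein complex, which inserts membrane proteins without SEC61, none of 10 genes passed (0 at unadjusted p under 0.05) and the median difference was −0.06, with EMC1 (−0.23 ± 0.12) and EMC10 (−0.20 ± 0.11) lowest in p, at limma adjusted values of 0.221 and 0.244. None of the 7 genes of tail-anchored protein insertion passed (0 at unadjusted p under 0.05). GET4 (0.18 ± 0.10) and CAMLG (0.18 ± 0.12) had the smallest p (limma adjusted 0.262 and 0.303). Of all 12042 genes tested, 4044 had an unadjusted limma p under 0.05. With the replicate block no gene of the ER membrane complex or of tail-anchored insertion passed, where 34.9% of all genes did. With the block and median scaling 3 of the 10 genes of the ER membrane complex were lower, EMC1, EMC10 and EMC3 (limma adjusted p 0.0318, 0.0259 and 0.0386). None of tail-anchored insertion passed. In that fit 35.1% of all genes passed and 20.5% were lower.

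Of 16 further COPII genes, 2 rose and 1 fell, while after median scaling none rose and 1 fell. TFG, which organises ER exit sites, was at 132 and 131 TPM with DMSO and 167 and 164 TPM with JG342 (0.33 ± 0.09, limma adjusted p 0.034; 0.0696 after median scaling), and ERGIC1, a protein of the compartment between ER and Golgi, was at 340.1 and 331 TPM with DMSO and 270.3 and 274 TPM with JG342 (−0.30 ± 0.09, limma adjusted p 0.0441). Among 35 SNAREs and tethers 4 rose and 1 fell. With the block 10 of these were higher and 2 lower, beside 19.2% and 15.7% of all genes. The smallest p belonged to the Golgi SNAREs STX5 (0.56 ± 0.10, limma adjusted p 0.00788) and BET1L (0.59 ± 0.12, limma adjusted p 0.012). Of 15 further COPI genes 3 rose and none fell. With the block 6 of the 15 were higher and 1 lower, beside 19.2% and 15.7% of all genes. After median scaling 2 were higher and 1 lower, beside 8.03% and 9.98% of all genes. ARFGAP3, which stimulates GTP hydrolysis by ARF1 on COPI vesicles, was at 40.5 and 42.3 TPM with DMSO and 67.6 and 74.5 TPM with JG342 and rose by 0.76 ± 0.11 (limma adjusted p 0.00252). The median difference of these further COPI genes was 0.19, near that of the COPI members. Called genes made up 41.7% of the genes listed as translocon partners, 18.2% of the oligosaccharyltransferase genes and 18.8% of the further COPII genes. They made up 14.3% of the SNAREs and tethers and 20% of the further COPI genes, beside 18.4% of all genes tested. With each library left out in turn, HYOU1 and ARFGAP3 passed every time, and each of TRAM2, HSPA5, TMEM258, OSTC, TFG, ERGIC1, STX5 and BET1L failed at least once, with its highest limma adjusted p between 0.0568 (STX5) and 0.203 (ERGIC1).

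**Figure D5:**
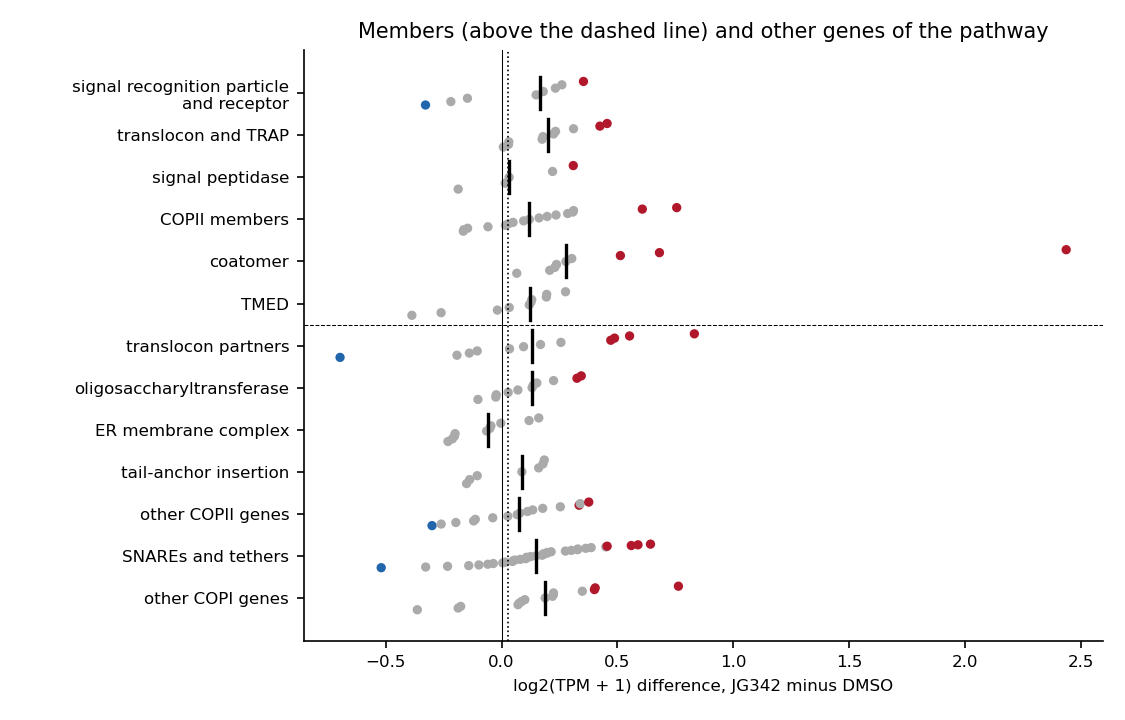
Difference in log2(TPM + 1) between JG342 and DMSO (x axis) for the members by complex, above the dashed line, and for the other lists of the pathway, below it. Points are genes, red where they rose and blue where they fell past the threshold, and black bars are medians, which range from −0.06 for the ER membrane complex to 0.28 for coatomer.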

How the data were processed

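RNA from 4 libraries of MM.1S cells was sequenced on a BGI platform, per the labels' protocols. The authors deposited 1 table with a TPM value per gene and library. HISAT2 2.0.4, Bowtie2 2.2.5 and RSEM 1.2.12 are listed in the submitters' processing notes, without their roles, and the genome build, annotation and filters are not given in the sources used here. The unit was inferred from the totals of between 994463 and 994718 per library. Because TPM keeps no depth, no counting intervals are given, and no count model was applied.

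Values were transformed to log2(TPM + 1), and genes averaging 1 TPM or more were fitted across the whole table with limma 3.58.1 in R 4.3.3 (mean-variance trend, treatment as the only term, two-sided, Benjamini-Hochberg adjustment over 12042 genes, threshold 0.05). The replicate number entered as a block in an alternative. Pairing is taken from the labels, where same-numbered libraries share a description prefix, and their deviations from the treatment means correlated across genes at 0.27 (Pearson) and 0.30 (Spearman). That block fit left 1 residual degree of freedom and set each gene's variance from its level alone. Alternatives were another pseudocount, other filters on low values, median and quantile scaling, no trend, and leaving out each library. Transcripts of GENCODE release 29 were searched for near-identical stretches of each member with BLAST 2.17.0 (at least 95% identity over at least 20% of the transcript). Read numbers for COPZ2 come from the most frequent product of TPM and transcript length among values up to 0.5 TPM. Every member may be named. Library values are given for members past the threshold, the highest and most changed of each group and their paralogs, and the 2 genes of smallest p are named in each other list, apart from an item not reported here. Library values of further members, and HSPA5, were added after their values were seen. The members, lists and tests were chosen with earlier results of these data known. Promoter sequences are RefSeq's on GRCh38.p14.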

Additional observations from a re-analysis of the deposited data

How the results depend on the processing

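With 2 libraries a group, 1 library can decide a call. Of all genes, 2221 passed, against 828 with no filter, 4207 with the replicate block, 4226 with the block and median scaling, and 767 to 1825 with a library left out. For the members (10) these counts were 4, 24, 17 and 3 to 7, and 3 without a variance trend. For translocation (5) they were 1 with no filter, 3 with median scaling, 11 with the block, 0 without a trend (6 at unadjusted p under 0.05) and 0 to 2 with a library left out. COPII (2) gave 1 with no filter, with median scaling and without a trend, 4 with the block, 5 with the block and median scaling, and 1 to 2. COPI (3) gave 2 with no filter and without a trend, 9 with the block, 5 with the block and median scaling, and 2 to 3. Without a trend, 1508 of all 12042 genes passed and 3806 had an unadjusted limma p under 0.05. All 10 calls were kept with the block, with and without scaling. The block fit without scaling set each gene's variance from its level alone. In it 34.9% of all genes passed, and 35.1% with scaling, so keeping a call there is a weak check. Median scaling, alone or with the block, moved the median difference to 0.113 for all members and for translocation, 0.054 for COPII and 0.129 for COPI; leaving out libraries gave 0.115 to 0.185, 0.115 to 0.185, 0.058 to 0.151 and 0.133 to 0.244. The median of all genes went from 0.027 to −0.038. The cause of these moves was not tested.

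Signs turned only in members that did not pass. With median scaling, alone or with the block, the differences were −0.049 (SEC13), −0.016 (SEC23A), −0.036 (SEC24B), −0.058 (SEC61A2), −0.036 (SEC62), −0.050 (SPCS1), −0.033 (SPCS3), −0.034 (SSR1) and −0.032 (TMED5). Quantile normalization gave −0.055 (SEC23A), −0.042 (SEC24B), −0.10 (SEC61A2) and −0.0093 (TMED5). Leaving out libraries gave −0.00073 to 0.13 (COPB2), −0.12 to 0.0024 (SAR1B), −0.014 to 0.048 (SEC13), −0.021 to 0.12 (SEC23A), −0.034 to 0.093 (SEC24B), −0.17 to 0.19 (SEC61A2), −0.092 to 0.15 (SEC62), −0.014 to 0.046 (SPCS1), −0.020 to 0.086 (SPCS3), −0.058 to 0.12 (SSR1), −0.12 to 0.59 (SSR4), −0.13 to 0.095 (TMED3), −0.17 to 0.24 (TMED5), −0.33 to 0.72 (TMED6) and −0.021 to 0.28 (TMED7). A pseudocount of 0.1 and quantile normalization kept all 10 calls. TPM gives no depth, so the counting error of low genes such as COPZ2 is known only roughly.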
